A study of Homo sapiens with 24 samples.

Results

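The antiviral effectors described here were 10 interferon-stimulated genes, IFIT1, IFIT2, IFIT3, IFIT5, OAS1, OAS2, OAS3, OASL, MX1 and ISG15. They were chosen by name and were 10 of the 58721 genes in a table of raw read counts. The counts came from 3′ RNA-seq, which sequences the polyadenylated end of each transcript, of 2 human bladder cancer cell lines. RT112 stood for the luminal papillary subtype and SCaBER for the basal/squamous subtype. Each line received 6 siRNA treatments by lipid reverse transfection with Lipofectamine RNAiMax: siControl (control siRNA number 2), siFOXA1 (number 1), siZBED2-1, siZBED2-2, siFOXA1 together with siZBED2-1, and siFOXA1 together with siZBED2-2. Each treatment had 2 libraries per line, numbered by experimental batch, which gave 12 groups and 24 libraries. FOXA1 is a pioneer factor that opens chromatin in luminal urothelium, and ZBED2 is a DNA-binding protein of the BED zinc finger family. A single FOXA1 siRNA and a single control siRNA were used, so the loss of FOXA1 cannot be told apart from another effect of that siRNA, and the labels do not say whether cells with a single active siRNA also received a control siRNA to keep the dose equal.

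Interferons bind receptors that activate the kinases JAK1 and TYK2, and these lead to the assembly of the complex ISGF3, which includes STAT2 and IRF9. ISGF3 binds interferon-stimulated response elements in the promoters of antiviral genes, and IRF3 or IRF1 can occupy the same elements in infected or stressed cells. Among the genes it induces, IFIT proteins bind viral RNA with unusual 5′ ends, and OAS proteins sense double-stranded RNA and make oligoadenylates, which act as second messengers. OASL lacks this enzyme activity and acts on the RNA sensor RIG-I. MX1 is a dynamin-like GTPase that traps viral nucleocapsids, and ISG15 is a ubiquitin-like protein that is conjugated to newly made proteins. Tumour cells can keep these genes active without infection.

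The libraries held 4425404 to 6119210 counted reads. Luminal markers summed to 2930 to 5030 CPM (reads of a gene relative to the library total, scaled by edgeR's TMM factors) in RT112 and 919 to 1430 CPM in SCaBER, and basal markers to 919 to 1580 CPM and 3680 to 6710 CPM, so the markers went with the labelled subtypes. The 8 immune cell markers together had 0 to 13 reads per library in RT112 and 7 to 31 in SCaBER, and fibroblast markers summed to 108 to 186 CPM and 16.5 to 45 CPM. In RT112 FOXA1 had 192 and 225 reads under siControl against 34 and 44 reads under siFOXA1, and in SCaBER 20 and 28 against 4 and 6 reads. Its fall passed the test in RT112 (log2 fold change -2.36 ± 0.38 (SE), adjusted p 5.68e-05) and not in SCaBER, where FOXA1 was scarce (-2.09 ± 1.23, adjusted p 0.272). Mitochondrial genes took 18.6% to 22.7% of the reads in the 6 RT112 libraries with FOXA1 siRNA, 8.22% to 17.8% in the other 6 RT112 libraries, and 9.29% to 12.9% in SCaBER. Their part in the results was not tested. In bulk RNA, fewer cells with a transcript and less transcript per cell cannot be told apart.

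On the RefSeq annotation of GRCh38.p14, the IFIT genes lie together on chromosome 10: IFIT2 at chr10:89302046-89309271, IFIT3 at chr10:89327997-89340968, IFIT1 at chr10:89392623-89406487 and IFIT5 at chr10:89414568-89420997. OAS1 (chr12:112906962-112933219), OAS3 (chr12:112938474-112973251) and OAS2 (chr12:112978519-113011723) are neighbours on chromosome 12, and OASL lies apart at chr12:121017761-121039246. MX1 is at chr21:41420558-41459214 and ISG15 at chr1:1013497-1014540. The annotated span of LIPA, a lysosomal lipase gene, overlaps all 4 IFIT genes. LIPA itself had 383 to 863 reads per library in RT112 and 336 to 672 in SCaBER, and it rose with siFOXA1 by 0.99 ± 0.17 on the log2 scale in the former (adjusted p 9.65e-05) and by 0.68 ± 0.18 in the latter (0.00543). Strandedness was detected automatically in the counting, and the part of reads shared between LIPA and the IFIT genes was not tested.

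Promoter windows around annotated starts from RefSeq (GRCh38.p14) were found for 7 of the 10 genes, in 10 windows; IFIT2, OAS2 and OASL were not among them. The core of the interferon-stimulated response element, GAAANNGAAA or TTTCNNTTTC on the other strand, with overlapping matches counted, was in at least 1 window of 6 of these 7 genes, and of 4.38% of the 27305 genes with a window (3.57% of 35116 windows). The gamma-activated site TTCNNNGAA, which reads the same on both strands, was in 7.66% of all windows and in at least 1 window of 9.38% of genes. The 200 bases before the gene start are shown for 6 genes, 5′ to 3′, to set the IFIT, OAS and ISG15 starts side by side; capitals mark matches to the response element core.
IFIT1 (chr10:89392423-89392622, plus strand): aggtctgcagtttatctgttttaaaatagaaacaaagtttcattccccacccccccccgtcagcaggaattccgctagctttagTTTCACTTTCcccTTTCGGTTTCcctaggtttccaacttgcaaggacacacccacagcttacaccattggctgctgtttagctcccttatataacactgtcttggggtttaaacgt
IFIT3 (chr10:89327797-89327996, plus strand): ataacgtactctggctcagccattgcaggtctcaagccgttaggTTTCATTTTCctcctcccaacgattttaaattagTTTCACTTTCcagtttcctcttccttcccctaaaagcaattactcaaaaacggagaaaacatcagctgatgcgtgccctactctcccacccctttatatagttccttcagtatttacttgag
IFIT5 (chr10:89414368-89414567, plus strand): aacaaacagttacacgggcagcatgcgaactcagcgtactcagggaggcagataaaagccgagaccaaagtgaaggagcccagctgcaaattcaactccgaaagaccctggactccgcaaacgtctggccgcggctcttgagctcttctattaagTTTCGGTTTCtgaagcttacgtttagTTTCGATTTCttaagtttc
ISG15 (chr1:1013297-1013496, plus strand): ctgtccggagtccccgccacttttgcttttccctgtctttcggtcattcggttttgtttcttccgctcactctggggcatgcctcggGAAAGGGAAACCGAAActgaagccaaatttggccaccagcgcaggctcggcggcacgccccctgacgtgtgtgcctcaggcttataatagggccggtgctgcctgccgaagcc
OAS3 (chr12:112938274-112938473, plus strand): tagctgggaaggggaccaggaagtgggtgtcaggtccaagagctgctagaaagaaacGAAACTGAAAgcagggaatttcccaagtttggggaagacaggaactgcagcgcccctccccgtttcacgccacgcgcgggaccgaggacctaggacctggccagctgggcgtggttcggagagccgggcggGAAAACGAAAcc
OAS1 (chr12:112906762-112906961, plus strand): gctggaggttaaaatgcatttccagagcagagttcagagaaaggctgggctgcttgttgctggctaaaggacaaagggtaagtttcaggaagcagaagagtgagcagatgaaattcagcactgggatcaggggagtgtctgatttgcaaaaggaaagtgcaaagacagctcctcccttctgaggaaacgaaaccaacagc
IFIT1 has 2 matches, which begin 116 and 103 bases upstream, and IFIT3 has 2, at 156 and 122 bases in the window shown. IFIT5 has 3, at 45, 19 and 4 bases, of which the third crosses the start and is left in lower case. ISG15 has 2 overlapping matches at 113 and 107 bases, and OAS3 has 2 at 143 and 12 bases. OAS1 has none with this spacing, and has 1 gamma-activated site at 168 bases. The end of its sequence holds GAAACGAAA, with 1 base between the repeats, and such other spacings were not searched in any window. MX1 has 3 annotated starts, with 1 core match 12 bases downstream of the first, none by the second and 1 at 196 bases before the third, where a gamma-activated site overlaps it at 189 bases. A match is a match of letters and not a shown binding site, and matches were counted in the windows as annotated, not at starts measured in these lines.

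Before any active siRNA, SCaBER held more of these transcripts than RT112. Under siControl the summed level of the 10 genes was 209 and 199 CPM in RT112 and 1300 and 1510 CPM in SCaBER. Over all 12 libraries of each line, siFOXA1 included, it ran from 186 to 800 CPM and from 968 to 7800 CPM. In a fit of all 24 libraries (edgeR quasi-likelihood test, Benjamini-Hochberg adjustment over 14823 genes, called below 0.05), 9 of the 10 genes were higher in SCaBER, against 17.2% of all genes, and 1 was lower, against 16.4%. The median log2 difference was 3.78. For IFIT3 the levels were 10.9 and 8.83 CPM in RT112 and 536 and 635 CPM in SCaBER, a log2 difference of 5.90 ± 0.46 (adjusted p 1.98e-12). For OASL they were 0 and 0.735 CPM, from 0 and 4 reads, against 77.9 and 80.6 CPM, a log2 difference of 7.55 ± 0.64 (adjusted p 1.88e-11). IFIT1 (3.84 ± 0.58), IFIT2 (3.71 ± 0.37), OAS2 (4.21 ± 0.56), MX1 (4.06 ± 0.45) and ISG15 (2.26 ± 0.39) were also higher in SCaBER, and OAS3 differed by 1.13 ± 0.26. OAS1 went the other way, with 50.2 and 44.9 CPM in RT112 and 19.1 and 27.5 CPM in SCaBER (-1.03 ± 0.34, adjusted p 0.0174; 0.0626 with DESeq2). IFIT5 was called (1.33 ± 0.42, adjusted p 0.0127) but not with the batch number as a block (adjusted p 0.0548). The OAS1 call was lost without RT112 or SCaBER siControl replicate 1 (adjusted p 0.0588 and 0.151), and that of IFIT5 without either siControl replicate 2 (0.0815 and 0.12).

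**Figure D1:**
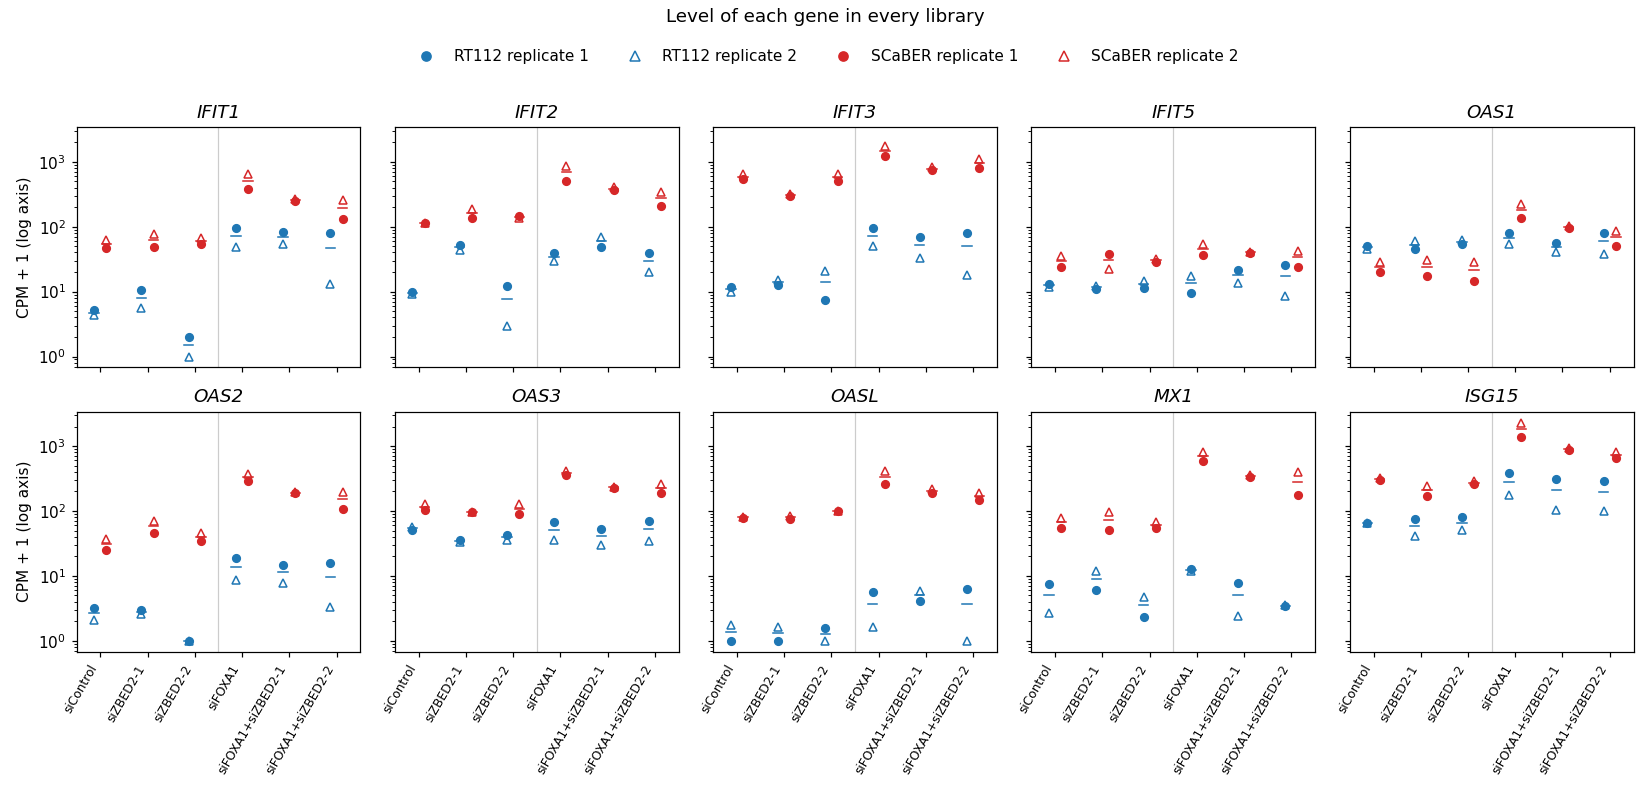
Level of each of the 10 genes in every library, as CPM + 1 on a log axis, by siRNA treatment; filled circles are replicate 1, open triangles replicate 2, and short bars the mean of the 2 libraries. Both SCaBER libraries with siFOXA1 sit above both siControl libraries in all 10 panels, and in RT112 IFIT5, OAS3 and OASL overlap with siControl.

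With siFOXA1 the effectors rose in both lines, more of them in SCaBER. In SCaBER, 9 of the 10 genes rose and none fell, with a median log2 fold change of 2.58, while 8.71% of 13129 genes tested rose. In RT112, 5 of the 10 rose (IFIT1, IFIT2, IFIT3, OAS2 and ISG15) and none fell, with a median of 2.03, while 11.3% of 13264 genes rose. Both siFOXA1 libraries were above both siControl libraries for 10 of the 10 genes in SCaBER and for 7 of the 10 in RT112, against 27.8% and 30.1% of all genes tested.

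Among the RNA-binding IFIT proteins, IFIT1 recognises the 5′ end of foreign RNA. In RT112 it had 4.14 and 3.31 CPM with siControl and 94.5 and 47.2 CPM with siFOXA1, a log2 fold change of 4.24 ± 0.62 (adjusted p 1.46e-05). In SCaBER it had 45.4 and 61.5 CPM against 373 and 636 CPM (3.22 ± 0.24, adjusted p 6.57e-12). The siControl and siFOXA1 libraries did not overlap in either line. IFIT2, a partner of IFIT1 and IFIT3 in a larger complex, had 8.94 and 8.27 CPM against 37.7 and 28.9 CPM in RT112 (1.94 ± 0.45, adjusted p 0.00223). In SCaBER it had 111 and 114 CPM against 510 and 871 CPM (2.6 ± 0.20, adjusted p 8.83e-12). IFIT3, which stabilises IFIT1 and strengthens its RNA binding, had 10.9 and 8.83 CPM against 92.8 and 49.1 CPM in RT112 (2.84 ± 0.53, adjusted p 0.00027). In SCaBER it started high, at 536 and 635 CPM, and reached 1230 and 1720 CPM (1.31 ± 0.15, adjusted p 2.44e-08). The groups of IFIT2 and IFIT3 were also apart in both lines. IFIT5, which binds single-stranded RNA and tRNA, passed the test in neither line. It had 12.2 and 10.7 CPM against 8.68 and 16.1 CPM in RT112 (0.10 ± 0.49, adjusted p 0.919), where the groups overlapped, and 23.3 and 34 CPM against 36.2 and 52.2 CPM in SCaBER (0.60 ± 0.29, adjusted p 0.161).

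The OAS family split between the lines. OAS2, the middle-sized synthetase, was scarce in RT112, with 10 and 6 reads under siControl and 87 and 35 with siFOXA1 (2.92 ± 0.85, adjusted p 0.0138). This call was lost without siFOXA1 replicate 1 (adjusted p 0.122) and without siControl replicate 2 (adjusted p 0.112). In SCaBER OAS2 had 24.1 and 36 CPM against 287 and 375 CPM (3.45 ± 0.24, adjusted p 1.5e-12). OAS1, the smallest synthetase, had 50.2 and 44.9 CPM against 77.7 and 52.6 CPM in RT112 (0.44 ± 0.28, adjusted p 0.285), while SCaBER went from 19.1 and 27.5 CPM to 136 and 223 CPM (2.93 ± 0.29, adjusted p 1.66e-09). OAS3, the largest synthetase, had 50.8 and 55 CPM against 65.8 and 35.2 CPM in RT112 (-0.08 ± 0.32, adjusted p 0.9). The RT112 siFOXA1 libraries of OAS3 lay on either side of the siControl libraries. In SCaBER OAS3 went from 104 and 127 CPM to 358 and 410 CPM (1.72 ± 0.16, adjusted p 9.11e-10). OASL had 0 and 4 reads against 23 and 3 reads in RT112, too few to place it, and 77.9 and 80.6 CPM against 260 and 408 CPM in SCaBER (2.06 ± 0.17, adjusted p 6.18e-11).

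ISG15 rose in both lines and MX1 in SCaBER. The GTPase MX1 had 30 and 9 reads with siControl and 59 and 50 with siFOXA1 in RT112 (1.47 ± 0.80, adjusted p 0.202), and in SCaBER it went from 54.4 and 77.5 CPM to 579 and 805 CPM (3.38 ± 0.26, adjusted p 7.04e-12). The ubiquitin-like ISG15 had 63.5 and 65.1 CPM against 389 and 173 CPM in RT112 (2.12 ± 0.42, adjusted p 0.000573) and 300 and 316 CPM against 1400 and 2300 CPM in SCaBER (2.57 ± 0.16, adjusted p 2.49e-13). The siFOXA1 libraries of ISG15 were above its siControl libraries in both lines, with the 2 RT112 siFOXA1 libraries far apart.

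**Figure D2:**
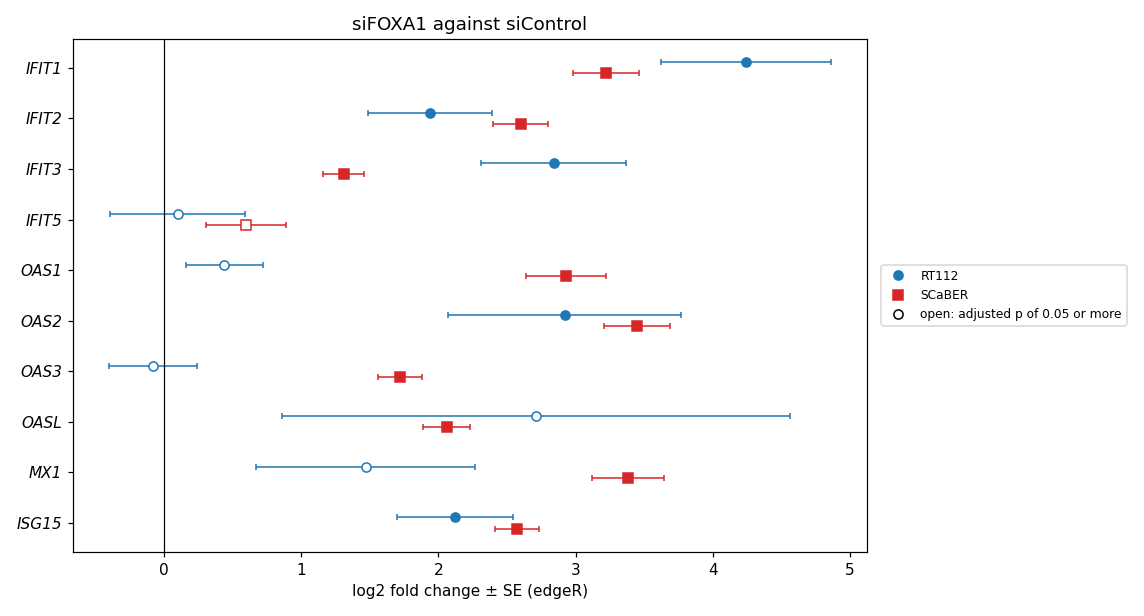
Log2 fold change of siFOXA1 against siControl for the 10 genes, with SE bars from edgeR (2 libraries per group, 12 libraries per line in the fit); filled symbols passed an adjusted p of 0.05. The difference between the lines was called for OAS1 (0.44 in RT112 and 2.93 in SCaBER) and OAS3 (-0.08 and 1.72).

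The difference of the siFOXA1 change between the lines was tested in the fit of all 24 libraries. It passed for 2 of the 10 genes, both larger in SCaBER, against 1.41% of all genes: OAS1, by 2.49 ± 0.46 on the log2 scale (adjusted p 0.00163), and OAS3, by 1.80 ± 0.37 (adjusted p 0.00426). MX1 missed the threshold (1.87 ± 0.66, adjusted p 0.135) and passed with the batch number as a block (adjusted p 0.0459) or without RT112 siControl replicate 2 (0.0199). IFIT3 changed less in SCaBER (-1.53 ± 0.57), which did not pass (adjusted p 0.163; 3.3e-09 when low-count genes were kept in the fit). For IFIT1, IFIT2, IFIT5, OAS2, OASL and ISG15 the difference did not pass, with values from -1.01 to 0.66.

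The ZBED2 siRNAs alone moved few of the genes. ZBED2 had 101 and 92 reads under siControl in RT112, 12 and 0 under siZBED2-1, and 38 and 36 under siZBED2-2. In SCaBER, in the same order, it had 101 and 96, 12 and 40, and 48 and 100 reads (18.9 and 18.9, 2.41 and 7.38, and 8.73 and 15.8 CPM). ZBED2 fell with siZBED2-1 in RT112 (-3.97 ± 0.93, adjusted p 0.00624) and SCaBER (-1.96 ± 0.47, 0.00848), and its change with siZBED2-2 did not pass in either line (-1.52 ± 0.79 and -0.61 ± 0.43). FOXA1 had 14 and 1 reads in the SCaBER siZBED2-1 libraries, against 20 and 28 under siControl. In RT112 siZBED2-1 raised 1 of the 10 genes, against 4.35% of all genes: IFIT2 went from 8.94 and 8.27 CPM to 51.1 and 42.9 CPM (2.44 ± 0.45, adjusted p 0.000628). The siZBED2-1 libraries of IFIT2 lay above both siFOXA1 libraries, at 37.7 and 28.9 CPM. IFIT1 and IFIT3 did not pass (0.94 ± 0.67 and 0.38 ± 0.55). The median of the 10 genes was 0.11.

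With siZBED2-2 in RT112 none of the 10 genes was called by edgeR or by DESeq2, 2 had an unadjusted p below 0.05, and 0.166% of all genes were called. These 2 were IFIT1, with 5 and 0 reads against 19 and 18 under siControl, and OAS2, with 0 and 0 reads against 10 and 6. IFIT1 passed with the batch number as a block (-3.06, adjusted p 0.0416), and both passed when low-count genes were kept in the fit (adjusted p 0.000892 and 0.0425). For OAS2 the siControl mean, 1.64 CPM, was 2.98-fold a floor of 3 reads per library in siZBED2-2 (0.551 CPM). This ratio leaves out the spread of the siControl libraries (2.18 and 1.1 CPM), and the fall was not called (adjusted p 0.279). In the direct test of siZBED2-1 against siZBED2-2 in RT112, 3 of the 10 genes were higher with siZBED2-1, against 3.77% of all genes: IFIT1 (3.89 ± 0.93, adjusted p 0.00923), IFIT2 (2.84 ± 0.46, adjusted p 0.00019) and OAS2 (mean 3.2-fold the same floor, adjusted p 0.0236). The IFIT1 and OAS2 calls were lost without siZBED2-1 replicate 1 (adjusted p 0.07 and 0.0635) or siZBED2-2 replicate 2 (0.0546 and 0.102), and that of OAS2 also without siZBED2-2 replicate 1 (0.0876).

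In SCaBER siZBED2-1 raised 1 gene, against 2.19% of all genes, and lowered 2, against 2.45%. IFIT3 fell from 536 and 635 CPM to 296 and 322 CPM (-0.95 ± 0.15, adjusted p 4.33e-05), with no overlap. ISG15 went from 300 and 316 CPM to 170 and 245 CPM (-0.60 ± 0.16, adjusted p 0.0209), and OAS2 from 24.1 and 36 CPM to 44.3 and 69.9 CPM (0.91 ± 0.24, adjusted p 0.0207). Of these 3 calls, that of IFIT3 was kept with DESeq2, while ISG15 and OAS2 had adjusted p of 0.189 and 0.146. The ISG15 call was lost without siZBED2-1 replicate 1 (0.402) or siControl replicate 2 (0.0783), and that of OAS2 without siZBED2-1 replicate 2 (0.422) or siControl replicate 1 (0.187). IFIT2 was called with the batch number as a block (adjusted p 0.0317). With siZBED2-2 none of the 10 was called by edgeR or DESeq2, none had an unadjusted p below 0.05, and 0.625% of all genes were called. Between the ZBED2 siRNAs in SCaBER, 1 of the 10 differed, against 2.4% of all genes: IFIT3 was lower with siZBED2-1 (-0.94 ± 0.15, adjusted p 7.79e-05). With the block 2 were called, the second being ISG15 (-0.42, adjusted p 0.0143).

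The siZBED2-1 change differed between the lines for 1 of the 10 genes, against 0.459% of all genes: IFIT2, which rose in RT112, had a change lower by 1.92 ± 0.48 in SCaBER (-1.92, adjusted p 0.0487; 0.12 with DESeq2). It was also lost without either RT112 siControl library, without RT112 siZBED2-1 replicate 1 and without SCaBER siZBED2-1 replicate 1. For siZBED2-2, 0 of the 10 and 0% of 14823 genes differed by edgeR, with 719 genes at an unadjusted p below 0.05 and 2 genes called by DESeq2.

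The FOXA1 siRNA was also given with each ZBED2 siRNA, which compares it on libraries apart from siControl and siFOXA1 alone. In SCaBER, siFOXA1+siZBED2-1 against siZBED2-1 raised 9 of the 10 genes, against 3.05% of all genes, with a median of 1.56. Against siZBED2-2, siFOXA1+siZBED2-2 raised 9 of the 10, against 1.65%, with a median of 1.25. IFIT5 was the gene that did not pass in both. MX1 rose from 50.5 and 94.2 CPM to 332 and 353 CPM on siZBED2-1 (2.24 ± 0.25, adjusted p 1.11e-07) and from 54.2 and 66.9 CPM to 175 and 391 CPM on siZBED2-2 (2.22 ± 0.25, adjusted p 2.52e-07). ISG15 rose from 170 and 245 CPM to 878 and 948 CPM (2.14 ± 0.16) and from 255 and 284 CPM to 665 and 803 CPM (1.44 ± 0.16). Without siFOXA1+siZBED2-2 replicate 2 the second comparison called 6 genes, with IFIT2 (adjusted p 0.137), IFIT3 (0.117) and OASL (0.13) lost, and without siZBED2-2 replicate 1 IFIT3 was lost (0.0772). With all libraries DESeq2 called 7 in the second comparison, without IFIT2 (0.0671) and IFIT3 (0.0551).

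In RT112, siFOXA1+siZBED2-1 raised 3 of the 10 genes over siZBED2-1, against 4.89% of all genes, with a median of 1.24 (0.68 without siFOXA1+siZBED2-1 replicate 1). These were IFIT1, from 9.5 and 4.65 CPM to 82.4 and 52.7 CPM (3.24 ± 0.57, adjusted p 0.000463), IFIT3 (1.98 ± 0.51, adjusted p 0.0129) and ISG15 (1.83 ± 0.42, adjusted p 0.00544). OAS2 missed the threshold (adjusted p 0.056) and passed with the block (0.03), with DESeq2 (0.037) and with low-count genes kept (0.0194). IFIT2, already raised by siZBED2-1, had 51.1 and 42.9 CPM against 48 and 68.9 CPM (0.31 ± 0.40, adjusted p 0.707). Over siZBED2-2, siFOXA1+siZBED2-2 raised 5 of the 10, against 4.44% of all genes, with a median of 1.74 (0.19 without siFOXA1+siZBED2-2 replicate 1): IFIT1 from 0.964 and 0 CPM to 78.9 and 12.3 CPM (6.55 ± 0.82, adjusted p 8.76e-06, against 5 and 0 reads), IFIT2 (2.1 ± 0.46), IFIT3 (1.90 ± 0.51), ISG15 (1.58 ± 0.42) and OAS2 (adjusted p 0.00065). OAS2 had 0 and 0 reads with siZBED2-2 and 67 and 11 with siFOXA1+siZBED2-2. The mean of the latter, 8.55 CPM, was 15.5-fold a floor of 3 reads per library, and its libraries lay far apart at 14.8 and 2.34 CPM. In replicate 2 of siFOXA1+siZBED2-2 the response was small, with IFIT3 at 17 CPM and ISG15 at 99.7 CPM against 80 and 288 CPM in replicate 1. Without replicate 1 of siFOXA1+siZBED2-2, 2 of these genes were called, and IFIT2 (adjusted p 0.0529), IFIT3 (0.742) and ISG15 (0.384) were lost; without siZBED2-2 replicate 2, 3 were called, and DESeq2 called 3. Over siZBED2-1, 1 gene was called without siFOXA1+siZBED2-1 replicate 1, with IFIT3 (0.114) and ISG15 (0.183) lost, and DESeq2 called 2, IFIT1 and OAS2.

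**Figure D3:**
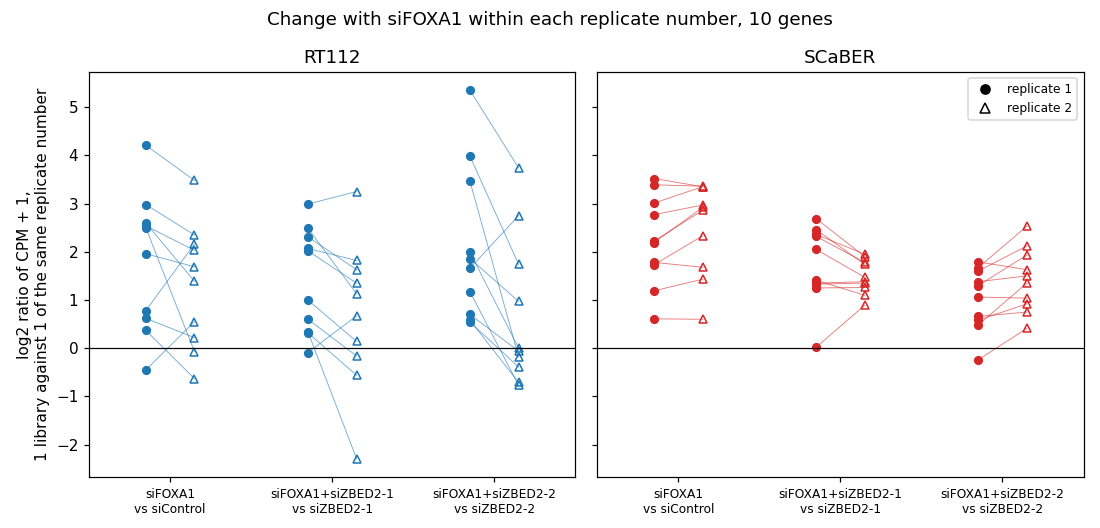
Log2 ratio of CPM + 1 for each of the 10 genes between single libraries of the same replicate number, with lines joining a gene's 2 replicates, for the 3 comparisons that add siFOXA1. In SCaBER 10 of the 10 genes were above 0 in both replicates for siFOXA1 against siControl (medians 2.21 and 2.89), and in RT112 the median of siFOXA1+siZBED2-2 against siZBED2-2 was 1.76 in replicate 1 and -0.03 in replicate 2.

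The replicate numbers marked experimental batches. The levels of the effectors differed between them in SCaBER and in the RT112 groups with siFOXA1. In RT112, 9, 8 and 9 of the 10 genes were higher in replicate 1 in the groups siFOXA1, siFOXA1+siZBED2-1 and siFOXA1+siZBED2-2, with median log2 differences of replicate 2 from replicate 1 of -0.89, -0.77 and -1.54. In RT112 siControl, siZBED2-1 and siZBED2-2, 7, 5 and 5 of the 10 genes were higher in replicate 1, with medians of -0.17, 0.04 and -0.14. In SCaBER, 8 to 10 of the 10 genes were higher in replicate 2 in all 6 groups, siControl included. Within replicate 1 alone, siFOXA1 against siControl was above 0 for 9 of the 10 genes in RT112 and 10 of the 10 in SCaBER, and within replicate 2 for 8 and 10. Each of the latter counts sets 1 library against 1, so the genes are not separate repeats. No share over all genes was computed for the counts by replicate.

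Adding a ZBED2 siRNA to siFOXA1 lowered the effectors in SCaBER. With siZBED2-1 added, 8 of the 10 genes were lower than with siFOXA1 alone and none was higher, against 1.39% of all genes lower, with a median of -0.86. With siZBED2-2 added, 9 of the 10 were lower, against 1.41%, with a median of -1.20. Both libraries with a ZBED2 siRNA were below both siFOXA1 libraries for 9 of the 10 genes in each comparison, against 21.4% and 22.7% of all genes. The siFOXA1 libraries are shared by the comparisons. ZBED2 had 100 and 84 reads with siFOXA1 alone, 20 and 8 with siZBED2-1 added (-2.84 ± 0.50, adjusted p 0.000537) and 49 and 57 with siZBED2-2 added, which did not pass (-0.85 ± 0.44, adjusted p 0.366). The levels of 9 of the 10 genes were still above those with the same ZBED2 siRNA and no siFOXA1, as tested in the comparisons on the ZBED2 siRNA backgrounds.

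IFIT1 in SCaBER had 373 and 636 CPM with siFOXA1, 245 and 262 CPM with siZBED2-1 added (-1.0 ± 0.22, adjusted p 0.00615) and 132 and 254 CPM with siZBED2-2 added (-1.37 ± 0.22, adjusted p 0.000139). IFIT2 had 510 and 871 CPM, 363 and 408 CPM (-0.84 ± 0.19, adjusted p 0.00647) and 206 and 340 CPM (-1.33 ± 0.19, adjusted p 2.51e-05). IFIT3 had 1230 and 1720 CPM, 743 and 826 CPM (-0.91 ± 0.14) and 801 and 1100 CPM (-0.61 ± 0.14). All 3 IFIT genes fell with either siRNA, and their libraries were apart from siFOXA1. IFIT5 did not pass (-0.18 ± 0.29 and -0.43 ± 0.29). The fall of IFIT3 with siZBED2-1 was similar without siFOXA1 (-0.95 ± 0.15). Its rise with siFOXA1 was 1.35 ± 0.15 on siZBED2-1 and 1.31 ± 0.15 over siControl. These did not differ by edgeR's interaction test (0.04 ± 0.20, adjusted p 0.975).

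Of the OAS genes, OAS1 had 136 and 223 CPM with siFOXA1, 95.3 and 101 CPM with siZBED2-1 (-0.88 ± 0.26, adjusted p 0.0597, and 0.00294 with the block) and 50.1 and 86 CPM with siZBED2-2 (-1.39 ± 0.26, adjusted p 0.00109). OAS2 had 287 and 375 CPM, 187 and 196 CPM (-0.79 ± 0.21) and 105 and 198 CPM (-1.12 ± 0.21). OAS3 had 358 and 410 CPM, 228 and 232 CPM (-0.74 ± 0.16) and 188 and 261 CPM (-0.76 ± 0.16). OASL, the relative without synthetase activity, had 260 and 408 CPM, 189 and 220 CPM (-0.71 ± 0.17) and 147 and 186 CPM (-0.99 ± 0.17). MX1 had 579 and 805 CPM, 332 and 353 CPM (-1.02 ± 0.23, adjusted p 0.00821) and 175 and 391 CPM (-1.28 ± 0.23, adjusted p 0.000616). ISG15 went from 1400 and 2300 CPM to 878 and 948 CPM (-1.02 ± 0.15, adjusted p 6.98e-05) and 665 and 803 CPM (-1.32 ± 0.16, adjusted p 3.01e-06).

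These counts depended on the tool and on single libraries. DESeq2 called 4 and 6 of the 10 genes. Without siFOXA1 replicate 2, the library with the highest levels, 3 and 7 were called; without siFOXA1+siZBED2-1 replicate 1 the first comparison called 5, and without siFOXA1+siZBED2-2 replicate 1 the second called 6. Between single libraries of replicate 1, 9 of the 10 genes had lower values with siZBED2-1 added and 10 of the 10 with siZBED2-2 added, with medians of -0.61 and -1.19, and in replicate 2 10 of the 10 had lower values with each, with medians of -1.07 and -1.08. The share of all genes with lower values between these single libraries was not computed.

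**Figure D4:**
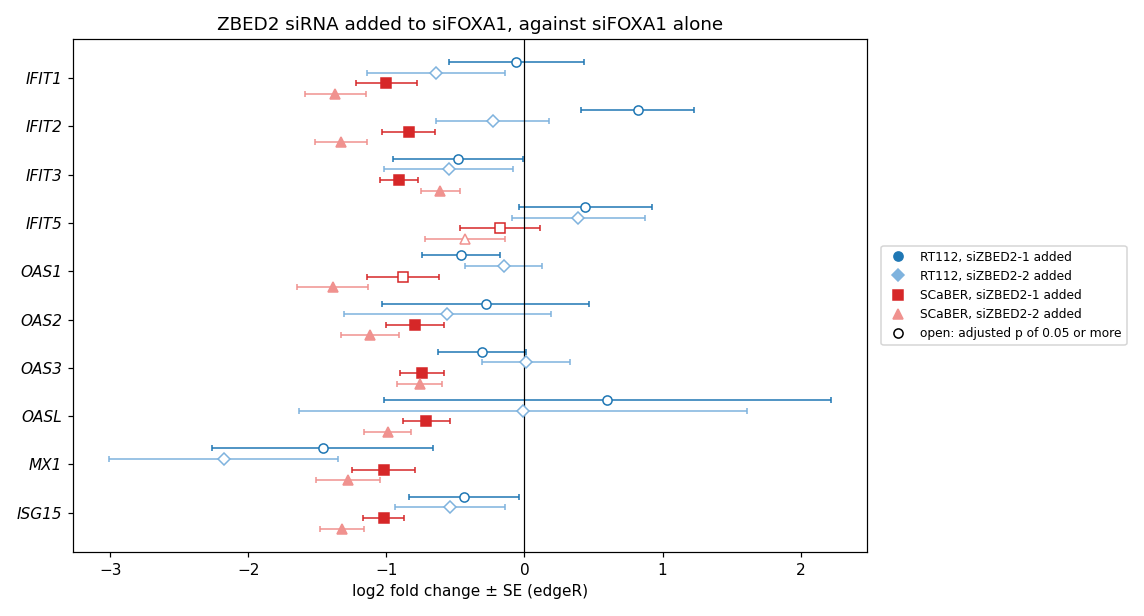
Log2 fold change of siFOXA1 with a ZBED2 siRNA against siFOXA1 alone for the 10 genes in both lines, with SE bars from edgeR (2 libraries per group); filled symbols passed an adjusted p of 0.05. The SCaBER values lie below 0 for all 10 genes with either siRNA, and no RT112 value passed.

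A test of the interaction asks whether the change with the ZBED2 siRNA differed with siFOXA1 present from that without it. In SCaBER it was negative and called for 2 of the 10 genes with siZBED2-1, against 0.769% of all genes: IFIT2 (-1.35 ± 0.27, adjusted p 0.00482) and OAS2 (-1.70 ± 0.32, adjusted p 0.00294). The block raised this to 4 genes, adding IFIT1 (adjusted p 0.000688) and MX1 (0.00141), and without siFOXA1 replicate 1 the test called 6. With siZBED2-2 it was called for 5 of the 10, against 0.731% of all genes: IFIT1 (-1.53 ± 0.32), IFIT2 (-1.64 ± 0.27), OAS2 (-1.51 ± 0.32), OASL (-1.29 ± 0.24) and ISG15 (-1.13 ± 0.22). The block raised it to 9 genes, DESeq2 called 1 and 3 genes, without IFIT2 for siZBED2-1 (0.0616) and IFIT1 (0.0947) and OAS2 (0.0681) for siZBED2-2, and without siZBED2-2 replicate 1 or siFOXA1+siZBED2-2 replicate 2 the test called 9.

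In RT112 no gene of the 10 was called by edgeR or DESeq2 when either ZBED2 siRNA was added to siFOXA1. With siZBED2-1, 0 had an unadjusted p below 0.05 and 2.55% of all genes were called, and with siZBED2-2 there was 1, MX1 (-2.18 ± 0.83, adjusted p 0.233), with 1.25% of all genes called. The medians were -0.29 and -0.38, and their sign depended on single libraries: with 1 library left out they lay between -0.76 and 0.24 and between -1.79 and 0.21. They were highest without siFOXA1 replicate 1 (0.24) and without siFOXA1+siZBED2-2 replicate 2 (0.21), and lowest without replicate 1 of the combined treatment. IFIT1 had 94.5 and 47.2 CPM with siFOXA1, 82.4 and 52.7 CPM with siZBED2-1 added and 78.9 and 12.3 CPM with siZBED2-2 added. ISG15 had 389 and 173 CPM, 310 and 102 CPM and 288 and 99.7 CPM. The libraries of both genes overlapped with those of siFOXA1 alone. Without siFOXA1+siZBED2-1 replicate 1, ISG15 was called lower (-1.45, adjusted p 0.0235), and without siFOXA1+siZBED2-2 replicate 1, IFIT1 (-2.53, adjusted p 0.00512), IFIT3 (-2.07, adjusted p 0.0287) and ISG15 (-1.50, adjusted p 0.0417) were. The interaction was called for none of the 10 by edgeR or DESeq2 with siZBED2-1, where 2 had an unadjusted p below 0.05, or with siZBED2-2, where 1 did; 1.14% and 0.098% of all genes were called. ZBED2 itself fell with siFOXA1 in RT112 (-2.48 ± 0.84, adjusted p 0.0325), to 27 and 7 reads, and not in SCaBER (0.05 ± 0.43, adjusted p 0.965), at 100 and 84 reads. FOXA1 had 34 and 44 reads with siFOXA1 alone in RT112, 19 and 56 with siZBED2-1 added and 71 and 47 with siZBED2-2 added. In SCaBER, in the same order, it had 4 and 6, 0 and 1, and 3 and 2 reads. The part of these FOXA1 levels in the comparisons was not tested.

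The other parts of the interferon pathway are given by role, from lists of named genes. Of 10 interferon genes, none had a read in any RT112 library, which with 3 reads as the limit of a count of 0 allows up to 0.524 to 0.664 CPM per library. In SCaBER they summed to 0 to 59 reads per library, and the 1 tested was IFNL1, a type III interferon. IFNL1 had 7 and 0 reads with siControl and 44 and 39 with siFOXA1 in SCaBER (3.68 ± 1.12, adjusted p 0.0178), 31 and 37 with siZBED2-1 added, and 17 and 13 with siZBED2-2 added, which did not pass. Of the receptor genes, 1 of 4 tested rose with siFOXA1 in RT112, the interferon gamma receptor IFNGR1 (0.85 ± 0.31, adjusted p 0.0489), and 0 of 4 in SCaBER. IFNAR1, IFNAR2 and IFNLR1 were called in neither line. Of the transducers, those that rose in both lines included STAT2 (2.03 ± 0.31 in RT112 and 2.71 ± 0.22 in SCaBER), IRF9 (3.50 ± 0.74 and 1.76 ± 0.59) and IRF2, a repressor at the same elements (0.84 ± 0.30 and 0.62 ± 0.21). Of those tested, 6 of 9 rose in RT112 and 5 of 10 in SCaBER. IRF1 and JAK2 were called in neither. JAK1 fell in RT112 (-1.01 ± 0.18, adjusted p 0.000129).

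Of the nucleic acid sensors, 3 of 9 tested rose in RT112 and 6 of 10 in SCaBER. RIG-I (DDX58) rose by 1.81 ± 0.49 and 1.36 ± 0.16, MDA5 (IFIH1) by 3.67 ± 0.63 and 2.71 ± 0.18, and PKR (EIF2AK2), which senses double-stranded RNA as OAS proteins do, by 0.70 ± 0.20 and 1.40 ± 0.18. The sensors CGAS and TLR3 and the adaptors MAVS and TMEM173 were called in neither line. Of the enzymes that attach or remove ISG15, 1 of 6 rose in RT112 and 4 of 6 in SCaBER. UBE2L6, the conjugating enzyme, rose in both (1.47 ± 0.36 and 2.26 ± 0.23), and the activating enzyme UBA7 and the ligase TRIM25 were called in neither. Of other antiviral effectors, 14 of 31 tested rose and 1 fell in RT112 and 31 of 32 rose in SCaBER, and the 14 that rose in RT112 also rose in SCaBER. They included MX2 (2.61 ± 0.58 and 4.68 ± 0.38), XAF1 (4.27 ± 0.68 and 2.47 ± 0.22) and IFITM3 (2.38 ± 0.38 and 1.23 ± 0.11). With siZBED2-2 added to siFOXA1 in SCaBER, 22 of these 32 genes fell, and so did STAT2 (-1.15, adjusted p 0.000371), IFIH1 (-0.84, adjusted p 0.0015) and UBE2L6 (-1.33, adjusted p 0.000187), and with siZBED2-1 added 10 of the 32 fell. These counts stand beside the shares of all genes given for the same comparisons.

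The genes whose pattern was most like the mean of the 10 were found by Pearson correlation of log2(CPM + 1) over the 12 libraries of each line, among 11763 genes tested in both. Ranked by the lower of the 2 values, the leading 5 outside the 10 included XAF1 (0.979 in RT112 and 0.98 in SCaBER), DDX58 (0.972 and 0.987), SP110 (0.973 and 0.962) and IFI27 (0.959 and 0.978). The libraries share treatments and depth, and the values are a description. Among the 10 themselves, which enter the mean, OAS2 and IFIT1 ranked 2 and 4, ISG15 and IFIT3 18 and 20, OASL 53 and IFIT2 255. IFIT5, OAS3, OAS1 and MX1 ranked 1229, 1309, 1347 and 1613, by RT112 values of 0.477, 0.457, 0.45 and 0.393. In SCaBER their values were 0.688, 0.985, 0.99 and 0.994. With siFOXA1 in RT112 each of these 4 missed the threshold, and so did OASL.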

How the data were processed

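RNA from RT112 and SCaBER cells was made into 3′ RNA-seq libraries with the Lexogen QuantSeq forward kit, and no molecular identifiers are stated. The deposited values used are raw read counts per gene, made by the authors with STAR 2.6.1a on hg38 per the labels (submitters' processing notes), while the study's methods name hg19. Strandedness was set automatically. A table of the same libraries in TPM was not used. The total per library limits precision: 3 reads, the limit that a count of 0 allows, were 0.474 to 0.678 CPM, for counting error only. Samples were grouped by cell line and siRNA label.

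Counts were tested with edgeR 4.0.16 (R 4.3.3, limma 3.58.1): TMM scaling, filterByExpr (minimum count 10, minimum total 15), and a quasi-likelihood test with 6 group means over the 12 libraries of a line, or 12 means over all 24 libraries between lines. The p-values were adjusted by Benjamini-Hochberg over all genes tested and called below 0.05. SE is the log2 fold change divided by the square root of F. Levels are CPM on TMM-scaled totals, and 3′ counts are not compared between genes. All 10 genes passed the filter in both lines. Alternatives were RLE scaling, library size alone, no filter, DESeq2 1.42.0, the batch number as a block, and leaving out each library, where a lone library is assumed to vary like the others. Scripts were tested on simulated data.

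The reported tests did not pair libraries across treatments. The labels tie the library number to an experimental batch. Libraries were matched by it only in the block alternative and in the comparisons within a replicate number. Over all genes tested, deviations of same-numbered libraries from their group means correlated by 0.0401 on average for RT112 and by 0.0328 for SCaBER, with 0 of 15 pairs above 0.1 in each. The members were not correlated apart, and in SCaBER most of them were higher in replicate 2 in every group. Nothing says that replicates were separate cultures, so p-values measure the spread between these libraries, which may be technical. The named genes were the 10 members, FOXA1 and ZBED2, the listed pathway genes called in both lines or in neither, and the 5 genes most like the members' mean. IFNGR1, IFNL1, JAK1 and LIPA were named after their values were seen. Some results that this rule covers are not reported here. The members and lists were chosen with earlier results of these data known.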

Additional observations from a re-analysis of the deposited data

Results flagged for a closer look

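The change with a ZBED2 siRNA differed with siFOXA1 present from that without it, by edgeR's interaction test in SCaBER, for these genes. With siZBED2-1 the interaction on the log2 scale was -1.35 for IFIT2 and -1.70 for OAS2. With siZBED2-2 it was -1.13 for ISG15, -1.64 for IFIT2, -1.53 for IFIT1, -1.51 for OAS2 and -1.29 for OASL. Between the lines, the change with siFOXA1 was larger in SCaBER than in RT112 by 2.49 for OAS1 and by 1.80 for OAS3. The change with siZBED2-1 was lower in SCaBER than in RT112 for IFIT2, by a log2 difference of -1.92. Each of these 10 values passed an adjusted p of 0.05 with edgeR, and 4 did not with DESeq2: the interaction of IFIT2 with siZBED2-1 (adjusted p 0.0616), those of IFIT1 (0.0947) and OAS2 (0.0681) with siZBED2-2, and the line difference of IFIT2 (0.12). Their causes were not tested. Groups held 2 libraries each, so single libraries were not tested for standing apart.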

How the results depend on the processing

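No result with a call changed direction under any alternative. Of 1177 values recomputed under other settings, 1126 stayed on the same side of the threshold, 21 lost and 30 gained a call, and of 3360 with a library left out 3245 stayed, 47 lost and 68 gained; 8 and 148 values that were not called changed sign. Values to which DESeq2 gave no adjusted p are not among the 1177, and counts of called genes take them as not called. RLE scaling and library size alone left every count of called members as it was. Library size alone moved the median of all genes to -0.11 for RT112 siFOXA1.

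With the batch number as a replicate block, members called went from 0 to 1 for RT112 siZBED2-2, from 1 to 2 between the ZBED2 siRNAs in SCaBER, and from 2 to 4 and 5 to 9 for the SCaBER interactions with siZBED2-1 and siZBED2-2; the line difference with siFOXA1 went from 2 to 3. Of the members' calls, the block lost that of IFIT5 between lines. Keeping low-count genes gave 2 for RT112 siZBED2-2, 1 for the RT112 interaction with siZBED2-1, 2 between the ZBED2 siRNAs in SCaBER, 4 and 8 for the SCaBER interactions, and 4, 2 and 2 for the line differences with siFOXA1, siZBED2-1 and siZBED2-2. DESeq2 gave 3 for RT112 siFOXA1+siZBED2-2 over siZBED2-2, and in SCaBER 1 for siZBED2-1, 4 for siFOXA1+siZBED2-1 against siFOXA1, and 1 and 3 for the interactions, with 0 for the line difference with siZBED2-1. The causes were not tested.

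Leaving out 1 library gave, in RT112, 4 to 5 called for siFOXA1, 0 to 1 for siZBED2-2, 1 to 4 and 2 to 5 for siFOXA1 on siZBED2-1 and siZBED2-2, 0 to 1 and 0 to 3 for siZBED2-1 and siZBED2-2 added to siFOXA1, 1 to 3 between the ZBED2 siRNAs, and 0 to 1 for the interaction with siZBED2-1. In SCaBER it gave 2 to 4 for siZBED2-1, 6 to 9 for siFOXA1 on siZBED2-2, 3 to 9 and 6 to 9 for siZBED2-1 and siZBED2-2 added to siFOXA1, 1 to 2 between the ZBED2 siRNAs, 2 to 6 and 5 to 9 for the interactions, and between lines 2 to 3 for siFOXA1 and 0 to 1 for siZBED2-1. For siFOXA1 the members' median lay at 1.40 to 2.36 (RT112) and 2.16 to 2.91 (SCaBER). In RT112 it ran from 0.68 to 1.70 and from 0.19 to 2.35 for siFOXA1 on siZBED2-1 and siZBED2-2, from -0.76 to 0.24 and from -1.79 to 0.21 for siZBED2-1 and siZBED2-2 added to siFOXA1, and from -1.14 to -0.04 and from -0.92 to 0.76 for the interactions. In SCaBER it ran from -1.16 to -0.57 and from -1.55 to -0.81 for siZBED2-1 and siZBED2-2 added to siFOXA1.

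Counts of called genes over all genes moved by over 1.5 times as follows, given with low-count genes kept, with DESeq2 and with the replicate block where more than 1 moved. In RT112 they went from 22 to 58, 70 and 44 for siZBED2-2, from 166 to 324, 324 and 336 for siZBED2-2 added to siFOXA1, from 151 to 361, 340 and 360 for the interaction with siZBED2-1, from 13 to 60, 77 and 41 for that with siZBED2-2, and with the block from 338 to 552 for siZBED2-1 added to siFOXA1. In SCaBER DESeq2 and the block gave 336 and 348 in place of 194, and 330 and 361 in place of 206, for the interactions, and the block gave 125 in place of 82 for siZBED2-2 and 641 in place of 398 for siFOXA1 on siZBED2-2. Between lines, DESeq2 and the block gave 845 and 597 in place of 382 for siFOXA1, the 3 settings 215, 348 and 180 in place of 109 for siZBED2-1, and the first and second 26 and 2 in place of 0 for siZBED2-2. With library size alone the share of higher calls went from 47.5% to 32.9% and from 50.6% to 33.3% for RT112 siFOXA1 on siZBED2-1 and siZBED2-2, from 71.7% to 85.8% for siZBED2-2 added to siFOXA1 in RT112, from 53.4% to 64.5% for the SCaBER interaction with siZBED2-2, and from 37.6% to 27.4% for the line difference with siZBED2-1. Over all genes, the counts (range with 1 library left out) were, in RT112, 3084 for siFOXA1 (1869 to 3213), 1167 for siZBED2-1 (589 to 1376), 22 for siZBED2-2 (14 to 42), 1366 and 1165 for siFOXA1 on siZBED2-1 and siZBED2-2 (672 to 1583 and 588 to 1423), 338 and 166 for siZBED2-1 and siZBED2-2 on siFOXA1 (118 to 431 and 25 to 439), 1031 between the ZBED2 siRNAs (487 to 1244), and 151 and 13 for the interactions with siZBED2-1 and siZBED2-2 (54 to 403 and 5 to 142). In SCaBER they were 610 for siZBED2-1 (302 to 725), 82 for siZBED2-2 (34 to 113), 759 and 398 for siFOXA1 on siZBED2-1 and siZBED2-2 (296 to 929 and 209 to 550), 359 and 480 for siZBED2-1 and siZBED2-2 on siFOXA1 (133 to 423 and 217 to 599), 527 between the ZBED2 siRNAs (233 to 678), and 194 and 206 for the interactions with siZBED2-1 and siZBED2-2 (94 to 287 and 124 to 387), and for the line differences 382 for siFOXA1 (199 to 565), 109 for siZBED2-1 (64 to 151) and 0 for siZBED2-2 (0 to 18).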
